A study of Mus musculus with 9 samples.

Results

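The forkhead genes Foxa1, Foxa2 and Foxa3, the zinc finger genes Gata4, Gata5 and Gata6, the nuclear receptor gene Hnf4a and the homeobox genes Hhex and Prox1 were followed in the mid-foregut of mouse embryos while the lung buds form. These 9 genes, of 12393 with a probe set of their own, were chosen by name, and every probe set that the platform annotation assigns to 1 of them alone was taken, 15 in all. The tissue was wild type, and came from the gut tube between the pharyngeal arches and the liver at 16-20, 21-25 and 26-30 somites, or embryonic days 8.5, 9.0 and 9.5 by the labels. Somites are the paired mesoderm blocks that are added as the body axis grows, so their number gives the stage. Each stage had 3 biological replicates, each a pool of 5 to 10 foreguts on 1 Affymetrix array, and the foregut was cut out after the heart and neural tube had been taken away. A pool holds endoderm together with the mesoderm around it, and fewer cells of a type cannot be told apart from less RNA per cell.

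FOXA proteins are pioneer factors, which bind their sites in closed chromatin and make them accessible to other factors. In the mouse, Foxa1 and Foxa2 together are needed for the foregut endoderm to become competent to form liver, and they take part in forming the lung epithelium. GATA4, GATA5 and GATA6 act in the endoderm and in the heart. HNF4A, HHEX and PROX1 belong to the programme of the liver bud and its hepatoblasts, and HNF4A and HHEX also work in the visceral endoderm, the extraembryonic layer that lines the yolk sac.

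Signals are MAS5 values on a linear scale, given per array in the order replicate 1, 2 and 3 of a stage. Differences between stages are on the log2 scale with their SE, fitted by limma to log2(signal + 26.1) over all 9 arrays and all 8675 genes that passed a filter on low signal. That scale understates differences of dim genes. For each gene the brightest of its probe sets was used, and 8 of the 9 genes passed the filter, all except Prox1. The p-values adjusted by Benjamini-Hochberg cover all 8675 genes. Precision is limited by the number of arrays.

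Some arrays stand apart from others of their stage. The brightest probe set read only 27480 to 32584 on 3 narrow-range arrays (replicate 1 of 21-25 somites, replicates 1 and 2 of 26-30 somites), against 43792 to 61749 on the remaining 6. The markers of liver, yolk sac and heart were high in 16-20 somites replicate 2. Over the 12 hepatic markers on the array, of 14 listed, the summed signal was 2883, 40584 and 5279 at 16-20 somites, 2370 to 10526 at 21-25 somites and 2182 to 4072 at 26-30 somites. Over 7 of 8 yolk sac and visceral endoderm markers it was 2104, 6491 and 1670 at 16-20 somites, 2046 to 3440 at 21-25 somites and 2044 to 2733 at 26-30 somites. Over all 16 cardiac muscle markers it was 3373, 16934 and 4308 at 16-20 somites, 5425 to 6099 at 21-25 somites and 2517 to 7473 at 26-30 somites. No marker read 0 on any array, the lowest signal being 0.7. Apoa4, an apolipoprotein of the yolk sac, had 1317 in 16-20 somites replicate 2 and at most 32.4 elsewhere. In 21-25 somites replicate 2 the ratio of 3' to 5' actin signal, a measure of RNA quality and amplification, was the highest, at 45.3 against 20.9 to 36.8 on the others, and its array weight was the lowest, at 0.33.

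The 250 bases before the transcription start of Foxa1, Hnf4a, Foxa3 and Hhex are shown here from RefSeq (GRCm38.p6). Of the tested genes, Hnf4a, Hhex and Foxa3 were highest in 16-20 somites replicate 2 and Foxa1 was lowest in it. Prox1, below the filter, was highest in it too, and its windows and those of Foxa2 and Gata5 are not shown. RefSeq promoter windows were at hand for 7 of the 9 genes, all except Gata4 and Gata6, with 11 starts in all. Capitals mark matches, on either strand, to 7 short motifs: the forkhead cores GTAAACA and GTAAATA, the GATA cores AGATAA and TGATAA, the HNF1 core GTTAAT, the HNF4 core CAAAGTCCA and the TATA box TATAAA. Foxa1 lies at chr12:57546112-57546361 on the minus strand, Foxa3 at chr7:19023540-19023789 on the minus strand and Hhex at chr19:37434591-37434840 on the plus strand. Hnf4a has an upstream start at chr2:163506607-163506856 and a downstream start at chr2:163546905-163547154, both on the plus strand.
Foxa1: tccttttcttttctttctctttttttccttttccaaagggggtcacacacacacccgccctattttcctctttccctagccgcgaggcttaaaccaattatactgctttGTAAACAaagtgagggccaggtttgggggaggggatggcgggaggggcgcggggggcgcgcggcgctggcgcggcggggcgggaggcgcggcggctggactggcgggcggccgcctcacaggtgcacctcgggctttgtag
Hnf4a, upstream start: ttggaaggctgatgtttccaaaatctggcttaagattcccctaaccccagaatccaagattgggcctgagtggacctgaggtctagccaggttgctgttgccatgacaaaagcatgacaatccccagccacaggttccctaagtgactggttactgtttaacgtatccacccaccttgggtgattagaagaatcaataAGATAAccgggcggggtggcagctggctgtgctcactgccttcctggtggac
Hnf4a, downstream start: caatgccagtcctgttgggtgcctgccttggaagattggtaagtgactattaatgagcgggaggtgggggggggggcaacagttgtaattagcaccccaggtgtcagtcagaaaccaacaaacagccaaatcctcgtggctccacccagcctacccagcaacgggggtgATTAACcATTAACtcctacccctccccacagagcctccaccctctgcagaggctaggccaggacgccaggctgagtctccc
Foxa3: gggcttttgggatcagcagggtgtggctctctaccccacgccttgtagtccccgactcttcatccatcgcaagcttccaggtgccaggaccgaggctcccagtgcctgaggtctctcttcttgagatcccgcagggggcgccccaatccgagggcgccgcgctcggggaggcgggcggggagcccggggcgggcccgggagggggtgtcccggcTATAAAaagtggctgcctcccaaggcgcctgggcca
Hhex: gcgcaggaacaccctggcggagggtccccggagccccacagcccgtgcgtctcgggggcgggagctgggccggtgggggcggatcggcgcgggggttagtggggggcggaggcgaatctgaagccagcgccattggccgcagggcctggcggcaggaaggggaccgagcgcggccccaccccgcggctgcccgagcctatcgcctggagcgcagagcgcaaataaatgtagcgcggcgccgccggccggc

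The Foxa1 window held 1 forkhead core, 141 to 135 bases before the start, and 3.17% of all 32851 promoter windows held that core. The upstream Hnf4a window held the GATA core AGATAA 52 to 47 bases before the start, a match that 9.99% of all windows share. The downstream Hnf4a window held the HNF1 core on the opposite strand at 81 to 76 and again at 74 to 69 bases before the start, against 6.43% of all windows with at least 1. Foxa3 had a TATA box 36 to 31 bases before its start (12.4% of all windows), and the Hhex window held none of the 7 motifs. A match is a run of letters and no measured binding. The Hhex window was 76% G and C, and the median over all windows was 52.4%.

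None of the 8 tested genes passed the test between any stages. By limma, 0 of 8 had an adjusted p under 0.05 at 26-30 against 16-20 somites, where 0 of 8675 genes passed (percent called 0), and the same held for both single steps and for any difference between the 3 stages. At an unadjusted p under 0.05, 1 of 8, Hhex, was lower at 26-30 than at 16-20 somites, and 4.85% of all genes were lower by that measure. In each step from stage to stage 0 of 8 had an unadjusted p under 0.05, against 11.1% of all genes for 21-25 against 16-20 somites (5.68% higher, 5.38% lower) and 4.07% for 26-30 against 21-25 somites (2.02% higher, 2.05% lower). For any difference between the 3 stages 0 of 8 had an unadjusted p under 0.05 as well, against 9.75% of all genes. The median log2 difference over the 8 genes was -0.07 for the whole interval, against 0.01 over all genes tested.

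**Figure D1:**
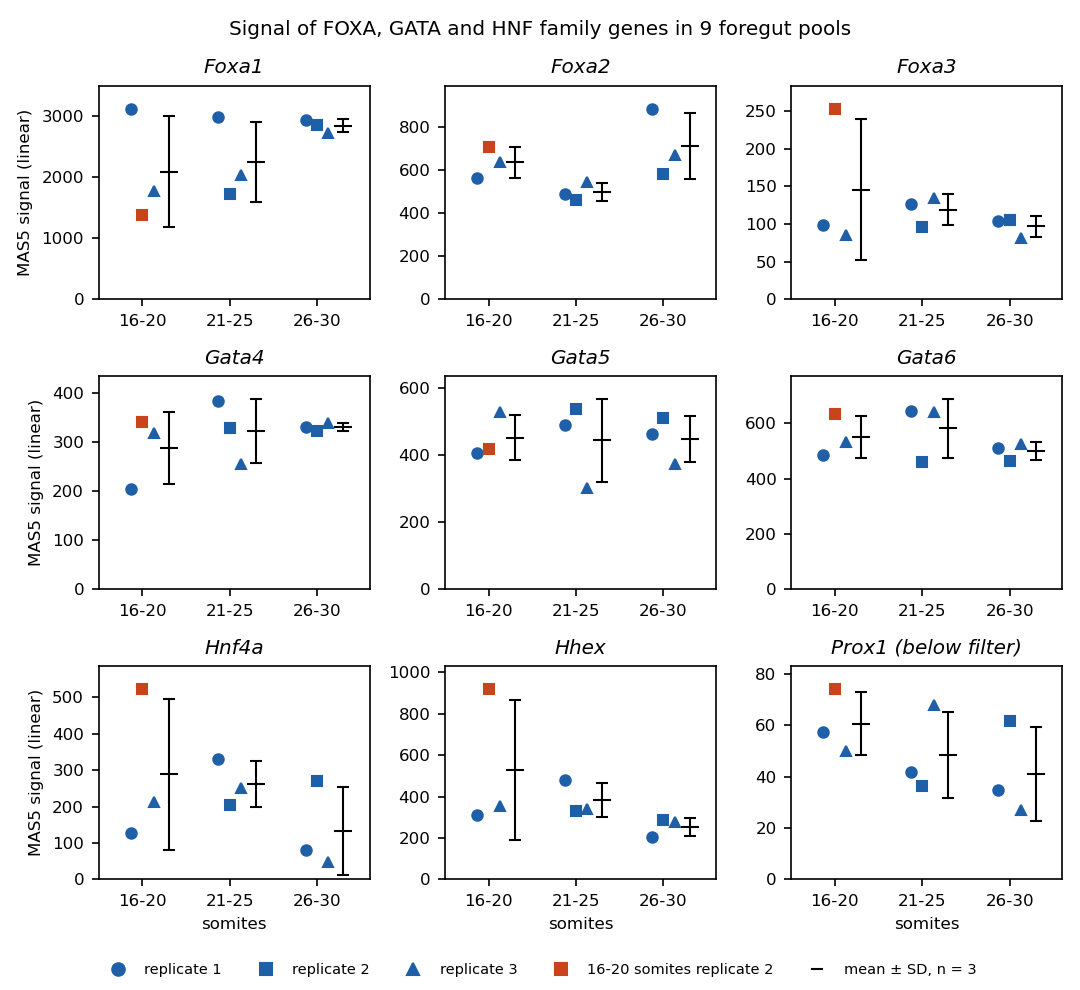
MAS5 signal (linear, y axis) of the probe set used for each of the 9 genes in every foregut pool, by somite stage (x axis); symbols are replicates, the bars beside them the mean ± SD of 3 arrays, and 16-20 somites replicate 2 is in orange. Hnf4a, Hhex and Foxa3 are highest in that array, at 524, 921 and 253, and Foxa1 is lowest in it, at 1383.

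Foxa1 had signals of 3123, 1383 and 1774 at 16-20 somites, 2991, 1725 and 2041 at 21-25 somites, and 2939, 2865 and 2727 at 26-30 somites. The latest stage was narrow, with a mean of 2844 ± 108 (SD, n = 3), while the first stage held both the highest and the lowest of the 9 arrays. The groups overlapped in every comparison, and replicate 1 of both earlier stages lay above all arrays of 26-30 somites. The log2 difference of 26-30 against 16-20 somites was 0.52 ± 0.30, with a 95% confidence interval of -0.13 to 1.17 and an adjusted p of 0.519. Leaving out 16-20 somites replicate 1 gave 0.85, and leaving out replicate 2 of that stage gave 0.27, with adjusted p of 0.327 and 0.856. With arrays weighted by their spread the difference was 0.61 and the adjusted p 0.0844. Those weights also raised the count of genes called over all genes tested, as given in the closing section. The largest weight, 3.38, was on 26-30 somites replicate 1, a narrow-range array. The steps were 0.15 ± 0.30 for 21-25 against 16-20 somites and 0.37 ± 0.30 for 26-30 against 21-25 somites, with adjusted p of 0.890 and 0.998. The first step was -0.10 without 16-20 somites replicate 2.

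Epithelial markers differed among themselves in 16-20 somites replicate 2, where Foxa1 was lowest. Of the 11 on the array, of 12 listed, 5 were highest of the 9 arrays there and 0 were lowest. The brightest were the keratin genes Krt8, with 3410, 7627 and 2987 at 16-20 somites, and Krt18, with 2341, 5459 and 3108, and the splicing regulator gene Esrp1, with 712, 539 and 812. Esrp1 was thus lowest of its stage in that array, and Sox2, a factor of the anterior gut, was lowest of all 9 there, at 182. Sox2 is from a list of 12 other regulators of the endoderm, of which 3 were lowest in that array and 4 were highest. The summed signal of the 11 epithelial markers was 8283, 16908 and 9867 at 16-20 somites, 7242 to 7833 at 21-25 somites and 7468 to 8160 at 26-30 somites. Their part in the Foxa1 values was not tested.

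Foxa2 also marks the notochord and floor plate, and its pattern had a dip at the middle stage. It had signals of 562, 707 and 635 at 16-20 somites, 489, 460 and 543 at 21-25 somites, and 883, 583 and 670 at 26-30 somites. All arrays of 21-25 somites lay below all arrays of 16-20 somites, by a gap of 19.6, and below all arrays of 26-30 somites, by a gap of 39.9. Among the 8 tested genes 1 was wholly below in 21-25 against 16-20 somites, against 7.3% of all genes, and 1 was wholly above in 26-30 against 21-25 somites, against 4.51%, and both were Foxa2. None of the 8 was wholly above in the first of these comparisons, against 6.94% of all genes, and genes without overlap in either direction made up 9.35% of all genes in the second.

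The log2 difference of Foxa2 was -0.33 ± 0.22 at 21-25 against 16-20 somites, 0.48 ± 0.22 at 26-30 against 21-25 somites and 0.14 ± 0.22 at 26-30 against 16-20 somites. Their adjusted p in limma was 0.606, 0.998 and 0.825, and the unadjusted p of the second step was 0.0507. The difference between the steps, second minus first, was 0.81 ± 0.38 with a 95% confidence interval of -0.02 to 1.64 and an adjusted p of 0.785, so the dip did not pass the test. At an unadjusted p under 0.05, 0 of 8 genes differed between the steps, against 6.32% of all genes. The whole interval value turned to -0.02 without 26-30 somites replicate 1. Netrin 1 (Ntn1), a guidance protein made by the floor plate, was the 1 gene of 8 in the notochord and floor plate list that passed the filter, with 125, 46.6 and 94.4 at 16-20 somites, 230, 60.6 and 230 at 21-25 somites, and 219, 191 and 151 at 26-30 somites. The array with the lowest Foxa2 signal, 21-25 somites replicate 2, is the one with the highest actin ratio, and the median deviation of the epithelial markers there was -0.72 on the log2 scale. Without it the steps were -0.28 and 0.43, and the other arrays of 21-25 somites, at 489 and 543, still lay below both other stages. The part of RNA quality in the Foxa2 values was not tested. Ntn1 was high in 2 of the arrays in which Foxa2 was low. The other genes of that list on the array were below the filter, among them Shh, with at most 38.3 in every array. The part of notochord or floor plate cells in the Foxa2 values was not tested.

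Foxa3, the member of the family best known from liver and gut, was dim. It had signals of 99.1, 253 and 85.3 at 16-20 somites, 127, 96.0 and 134 at 21-25 somites, and 105, 106 and 81.2 at 26-30 somites. The array 16-20 somites replicate 2 lay at 2.75 times the mean of the other arrays of its stage, and the other 8 arrays ranged from 81.2 to 134. The log2 difference of 26-30 against 16-20 somites was -0.36 ± 0.33 with an adjusted p of 0.692 in limma, and it was 0.06 without that array, with an adjusted p of 0.966. The groups overlapped in all 3 comparisons.

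**Figure D2:**
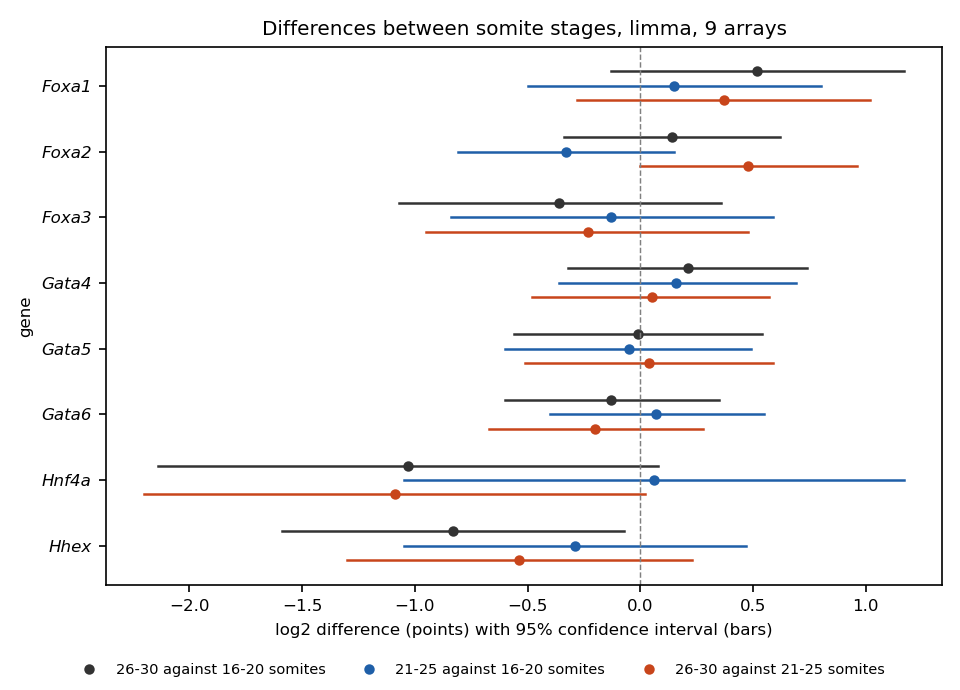
Log2 differences between somite stages (x axis) for the 8 tested genes (y axis), with 95% confidence intervals from limma over 9 arrays; black is 26-30 against 16-20 somites, blue 21-25 against 16-20 somites and orange 26-30 against 21-25 somites. The intervals are narrowest for Foxa2 and Gata6 and widest for Hnf4a, and only the Hhex interval of the whole comparison, -1.59 to -0.07, lies wholly on 1 side of 0 at 2 decimals.

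The GATA genes had the most even signals of the set. Gata4, which acts in the heart, the foregut and the septum transversum, had 205, 341 and 320 at 16-20 somites, 385, 330 and 256 at 21-25 somites, and 330, 323 and 340 at 26-30 somites. At 26-30 somites its mean was 331 ± 8.26, against 289 ± 72.8 at 16-20 somites (SD, n = 3 each), a log2 difference of 0.21 ± 0.24 with a 95% confidence interval of -0.32 to 0.74 and an adjusted p of 0.761. The value was 0.00 without 16-20 somites replicate 1, the lowest array. A second Gata4 probe set, 1418864_at, read 1.6 to 14.0 on all arrays and was below the filter.

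Gata5, a regulator of endocardium and heart formation in fish and of the aortic valve in mice, had 408, 420.0 and 530.2 at 16-20 somites, 492, 537 and 304 at 21-25 somites, and 463, 510 and 374 at 26-30 somites. The log2 difference of 26-30 against 16-20 somites was -0.01 ± 0.25, with a 95% confidence interval of -0.56 to 0.54 and an adjusted p of 0.987. The second probe set, 1450125_at, had 79.9, 178 and 190 at 16-20 somites, 166, 81.1 and 148 at 21-25 somites, and 205, 166 and 147 at 26-30 somites, and a difference of 0.24 ± 0.32 in a fit of every probe set. In 21-25 somites replicate 2 the used probe set had its highest signal and 1450125_at was next to its lowest, so the probe sets differed in the order of the arrays.

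Gata6, which the lung epithelium needs for its differentiation, had 483, 633 and 530.4 at 16-20 somites, 643, 459 and 641 at 21-25 somites, and 509, 462 and 524 at 26-30 somites. The highest array was 1.4 times the lowest, the smallest such ratio among the probe sets used for the 9 genes. The log2 difference of 26-30 against 16-20 somites was -0.13 ± 0.22, with a 95% confidence interval of -0.60 to 0.35 and an adjusted p of 0.849. The second probe set, 1425463_at, ranged from 72.8 to 125 and gave -0.13 ± 0.24 as well. For all 3 GATA genes the interval of the whole comparison covered 0, and its farther bound was 0.74 for Gata4, -0.56 for Gata5 and -0.60 for Gata6. Without 16-20 somites replicate 2 the differences were 0.34, -0.06 and -0.02.

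Genes that work with GATA factors had values of their own over the same arrays. Of 12 listed, 9 were tested, and 0 had an adjusted p under 0.05 at 26-30 against 16-20 somites. At an unadjusted p under 0.05, 2 were higher and 0 lower, against 6.29% and 4.85% of all genes, and the median was 0.09. Zfpm2, the FOG2 protein that binds GATA4 in the heart, had 595, 390 and 257 at 26-30 somites, against 122, 140 and 88.2 at 16-20 somites, a log2 difference of 1.57 ± 0.42 with an adjusted p of 0.317. All Zfpm2 signals at 26-30 somites lay above those at 16-20 somites, which held for 11.2% of all genes. The highest Zfpm2 signals, 595, 528 and 390, were in the 3 narrow-range arrays. The remaining array of 26-30 somites, replicate 3 at 257, lay near 21-25 somites replicate 3, at 252. The other gene with an unadjusted p under 0.05 was Tbx5, a T-box factor of heart and lung fields, at 1.24 ± 0.47 with an adjusted p of 0.375. With 16-20 somites replicate 2 removed these were 1.68 and 1.35, and without the narrow-range arrays 1.00 and 1.47.

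Hhex was the gene of the set with the smallest p. It had signals of 311, 921 and 356 at 16-20 somites, 478, 332 and 341 at 21-25 somites, and 206, 285 and 275 at 26-30 somites. All arrays of 26-30 somites lay below all arrays of 16-20 somites, by a gap of 25.2, and below all arrays of 21-25 somites, by a gap of 46.6. Of the 8 tested genes Hhex was the 1 that was wholly below in each of these comparisons, against 10.2% and 4.84% of all genes.

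The mean signal of Hhex was 255 ± 43.5 at 26-30 somites and 529 ± 340 at 16-20 somites (SD, n = 3 each). The log2 difference was -0.83 ± 0.35 with a 95% confidence interval of -1.59 to -0.07, an unadjusted p of 0.0352 and an adjusted p of 0.410 in limma. Without 16-20 somites replicate 2 the difference was -0.36 with an adjusted p of 0.767, and the remaining arrays of 16-20 somites, at 311 and 356, still lay above the 3 of 26-30 somites. Without the 3 narrow-range arrays it was -0.72, with the 1 array left at 26-30 somites taken to vary as much as the rest, and an adjusted p of 0.999. The steps were -0.29 ± 0.35 for 21-25 against 16-20 somites, which became 0.17 without 16-20 somites replicate 2, and -0.54 ± 0.35 for 26-30 against 21-25 somites, with adjusted p of 0.789 and 0.998.

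Hnf4a had the widest spread, and its highest array was 10.7 times its lowest. The probe set used, 1427001_s_at, had signals of 128, 524 and 214 at 16-20 somites, 330, 206 and 251 at 21-25 somites, and 80.3, 270 and 49.0 at 26-30 somites. At 26-30 somites replicates 1 and 3 were the lowest of all 9 arrays, while replicate 2 lay above 6 of the other 8. The log2 difference of 26-30 against 16-20 somites was -1.03 ± 0.51 with a 95% confidence interval of -2.14 to 0.08 and an adjusted p of 0.463. Leaving out 16-20 somites replicate 2 gave -0.53. At the later stage, leaving out replicate 2 gave -1.61 and leaving out replicate 3 gave -0.62. With the 3 narrow-range arrays removed it was -1.86, a value in which 26-30 somites is replicate 3 alone, the lowest array of the 9. The second step had -1.09 ± 0.51 with an adjusted p of 0.998, and the first 0.06 ± 0.51, which was 0.56 without 16-20 somites replicate 2.

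The 4 probe sets of Hnf4a did not share a direction. In the fit of every probe set, 1421983_s_at gave -0.45 ± 0.27 and 1450447_at gave 0.38 ± 0.26 for 26-30 against 16-20 somites, with adjusted p of 0.551 and 0.613. The first of these had 69.6, 92.8 and 124 at 16-20 somites and 53.9 to 71.8 at 26-30 somites, and the second 80.2, 106 and 52.3 at 16-20 somites and 93.7 to 119 at 26-30 somites. The last, 1427000_at, read 1.3 to 39.5 and was below the filter. In a fit of every probe set without a filter it gave -0.45 ± 0.31. Hnf4a has the pair of starts shown above, from which isoforms with different first exons are made, and the files do not say which isoform a probe set matches.

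**Figure D3:**
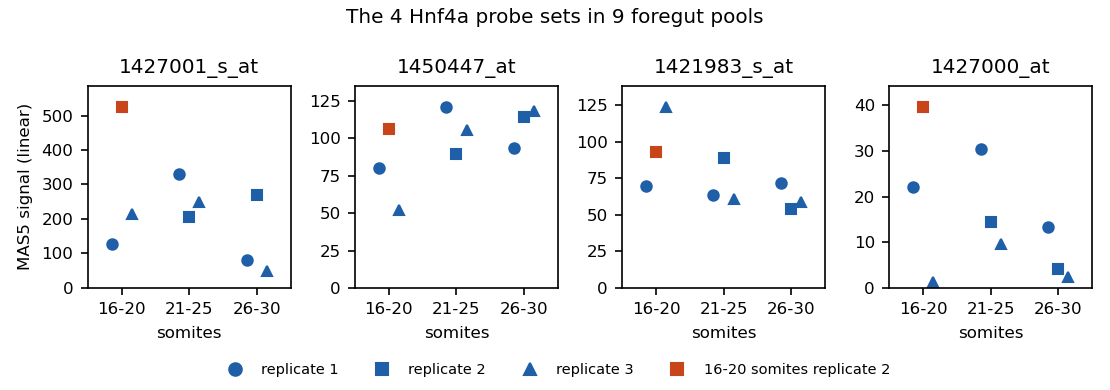
MAS5 signal (linear, y axis, a scale of its own in each panel) of the 4 Hnf4a probe sets in the 9 foregut pools by somite stage (x axis); symbols are replicates and 16-20 somites replicate 2 is in orange. That array is highest for 1427001_s_at, at 524, and for 1427000_at, at 39.5, and it lies within the range of the other arrays for the other probe sets.

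Prox1, a homeobox gene of migrating hepatoblasts and of lymphatic endothelium, did not pass the filter, its mean of 6.22 on the log2 scale lying under the filter level of 6.66. It had signals of 57.5, 74.2 and 50.1 at 16-20 somites, 41.7, 36.3 and 67.8 at 21-25 somites, and 34.9, 61.9 and 26.9 at 26-30 somites. The stages overlapped, and no test was made with the filter. In a fit without a filter the log2 difference of 26-30 against 16-20 somites was -0.39 ± 0.27 with an adjusted p of 0.638. The summed signal of the 5 lymphatic markers, Prox1 among them, was 823 to 1505 at 16-20 somites, 703 to 1567 at 21-25 somites and 801 to 1258 at 26-30 somites, and these ranges overlapped.

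Hnf4a, Hhex and Foxa3 shared their highest array, and so did Prox1. Of the 8 tested genes 3 were highest in 16-20 somites replicate 2, against 18.5% of all genes, and relative to the mean of the other arrays of that stage the signals were 3.06, 2.76 and 2.75 times as high for Hnf4a, Hhex and Foxa3. The factor was 1.3, 0.90 and 1.25 for Gata4, Gata5 and Gata6, 1.18 for Foxa2 and 0.56 for Foxa1. Of 12 liver genes listed as FOXA and HNF4A targets, 8 were highest of the 9 arrays there, and Alb, Apoc3, Tat and Pck1 were not. Transthyretin (Ttr), a carrier of thyroid hormone and retinol, had 967, 21559 and 2185 at 16-20 somites, and alpha-fetoprotein (Afp), the main plasma protein of the fetus, 1002, 7950 and 1420.0. The retinol carrier Rbp4, with them the brightest of the hepatic markers, had 237, 4789 and 497, and 8 of the 12 hepatic markers were highest there. Afp was also high in 21-25 somites replicate 1, at 5975, the array with the next highest signals of Hnf4a and Hhex, 330 and 478. Ttr there, at 1646, was below 16-20 somites replicate 3. That narrow-range array also had the highest summed signals of the mesenchyme and endothelial markers, at 19275 and 2655. Of the 7 yolk sac and visceral endoderm markers 5 were highest in 16-20 somites replicate 2, and Dab2 and Slc39a8 were not. Among the brightest, the homeobox gene Rhox5 had 1014 there and at most 226 elsewhere, the endocytic adaptor gene Dab2 had 1147 there and 2036 in 21-25 somites replicate 1, and the metal transporter gene Slc39a8 had 1273 there and 1906 in 26-30 somites replicate 3. Of the 16 cardiac muscle markers 13 were highest there, among them the brightest, Actc1, Myh6 and Tnnt2, at 3322, 5247 and 1684. The part of liver, yolk sac or heart cells in the signals of Hnf4a, Hhex and Foxa3 was not tested.

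**Figure D4:**
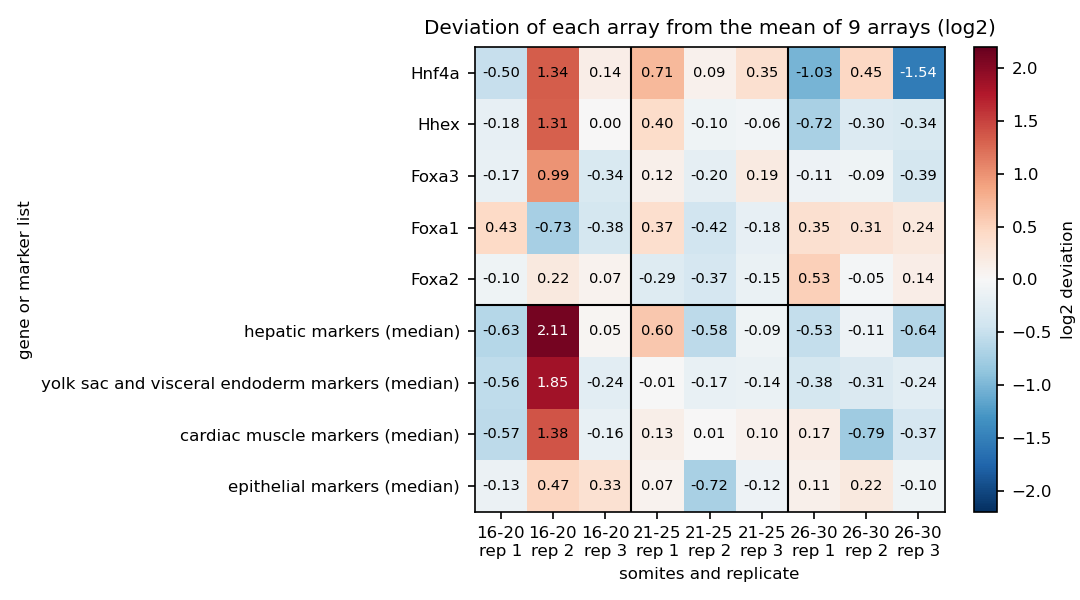
Log2 deviation of each array (x axis, somites and replicate) from the mean of the 9 arrays, for 5 genes and as the median over the tested genes of 4 marker lists (y axis); red is above and blue below the mean. In 16-20 somites replicate 2 Hnf4a, Hhex and Foxa3 lie at 1.34, 1.31 and 0.99 and the hepatic and yolk sac lists at 2.11 and 1.85, while Foxa1 lies at -0.73.

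Of the 12 liver target genes listed for FOXA and HNF4A, 7 were tested, and 0 had an adjusted p under 0.05 at 26-30 against 16-20 somites. Their median log2 difference was -0.78, against 0.01 over all genes. At an unadjusted p under 0.05, 0 were higher and 2 lower, against 6.29% and 4.85% of all genes. Those 2 were Ttr, at -2.66 ± 0.85 with an adjusted p of 0.346, and the apolipoprotein gene Apob, at -1.74 ± 0.72 with an adjusted p of 0.398, which had 35.7, 43.0 and 40.4 at 26-30 somites, against 48.6, 976 and 116 at 16-20 somites. Without 16-20 somites replicate 2 the median was -0.09 over the 6 that then passed the filter. Apob no longer passed it, so its value above rests on that array. Of the 6, 1 was lower at an unadjusted p under 0.05, Ttr, at -1.37 ± 0.49 with an adjusted p of 0.681. Without the narrow-range arrays the median was -1.30 over 8, with Apoa1 then among them. Apoa1 had 2643 in 16-20 somites replicate 2 and at most 139 elsewhere. Of 13 HNF and other liver-enriched regulators 10 were on the array and 5 were tested, with 0 past an unadjusted p of 0.05 in either direction and a median of 0.09, which was 0.34 without 16-20 somites replicate 2. Nr5a2, a nuclear receptor of endoderm and liver, had 96.3, 323 and 109 at 16-20 somites, 268, 107 and 211 at 21-25 somites, and 137, 218 and 147 at 26-30 somites. Of the 5 tested it was the 1 that was highest in 16-20 somites replicate 2, against 18.5% of all genes. Of the 10 on the array 2 were highest there and 3 were lowest. The Nr5a2 difference over the whole interval was 0.09 ± 0.41, and 0.57 ± 0.35 without that array, with adjusted p of 0.947 and 0.741.

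Among 12 other regulators of the endoderm 7 were tested, and 0 had an adjusted p under 0.05 at 26-30 against 16-20 somites, with a median of 0.55. The difference was positive for 5 of these 7, and at an unadjusted p under 0.05, 3 were higher and 0 lower, against 6.29% and 4.85% of all genes. Isl1, a LIM homeobox factor of foregut and heart progenitors, had 1.11 ± 0.29, Eomes, a T-box factor of early endoderm, 1.11 ± 0.34, and Sox2, a factor of the anterior gut that will form oesophagus and stomach, 1.04 ± 0.37, with adjusted p of 0.317, 0.346 and 0.363. Without 16-20 somites replicate 2 they had 0.87, 1.10 and 0.64, with Isl1 and Eomes under an unadjusted p of 0.05. Without the narrow-range arrays, with replicate 3 alone at 26-30 somites, they had 0.84, 1.05 and 0.83. The 3 narrow-range arrays held the highest signals of Isl1, at 1788, 2272 and 2277, and of Sox2, at 859, 846 and 722. For Eomes they did not, as 26-30 somites replicate 3, at 157, lay above the narrow-range replicate 1, at 135. The part of the array range in these differences was not tested. Of 19 other forkhead genes 11 were tested, with 0 past an adjusted p of 0.05 and a median of 0.36. At an unadjusted p under 0.05, 2 were higher and 0 lower, against 6.29% and 4.85% of all genes. These 2 were Foxp1, a regulator of lung and heart development with 2560 ± 225 at 26-30 somites and 1733 ± 164 at 16-20 somites (SD, n = 3 each; 0.56 ± 0.20), and Foxf2, a factor of gut mesenchyme (0.77 ± 0.35), with adjusted p of 0.363 and 0.439. Without 16-20 somites replicate 2 they had 0.49 ± 0.22 and 0.56 ± 0.37, with unadjusted p of 0.0509 and 0.163. Without the narrow-range arrays Foxp1 had 0.70, Foxf2 did not pass the filter, and the median of the forkhead list was 0.15 over 10.

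The genes most alike in pattern were taken for the 3 tested genes with the largest spread over the 9 arrays, by the root mean square difference of log2 values centred on each gene's mean. For Hhex they were Itih5, Slc22a23 and Fmo1, at 0.17, 0.17 and 0.20. For Hnf4a they were Mogat2, Casp8 and Olfml2b, at 0.38, 0.41 and 0.44, and for Foxa1 they were Sppl2a, Sh3bgrl and Vamp4, at 0.15, 0.16 and 0.18. Within the set Foxa3 lay nearest to Hhex, at 0.30, and Hhex nearest to Hnf4a, at 0.53, while Foxa1 lay at 1.11 from Hnf4a and 0.86 from Hhex. Likeness over 9 arrays includes what arrays share in tissue and RNA.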

How the data were processed

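The authors deposited MAS5 intensities on a linear scale, per the submitters' processing notes. The version of MAS5 and its target are not given here by any source. With 2% trimmed from either end, array means were 500.2 or 500.3. Per the labels' protocols, total RNA (100 ng) was amplified in 2 rounds, which favours 3' ends. The genes and lists were chosen with earlier results of these data known.

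Of 22690 probe sets, 20380 had 1 gene symbol in GEO's platform annotation, 691 had several, 1555 had none and 64 were controls. RefSeq gene IDs matched 20351 and changed 0 symbols. Each gene took its brightest probe set by mean log2, and the dimmest 30% of genes by mean were dropped. The pseudocount, 26.1, was the 20th percentile of all values. Array medians lay within 0.30 log2, so there was no further normalization. Stage means were fitted with limma 3.58.1 in R 4.3.3 (lmFit, eBayes with a trend), two-sided, at an adjusted p of 0.05. In 20 simulated sets of 26-30 against 16-20 somites over 8675 genes, each with 200 genes changed, log2 changes of 1, 1.5, 2 and 3 were found in 35.4%, 73.6%, 88.7% and 97.8% of cases. A mean of 7.55 unchanged genes per set was called. The noise was normal, independent between genes and of the same SD on all arrays of a gene. Arrays that stand apart were thus not simulated, and the shares do not hold for data with such arrays.

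The rule for named genes took all 9 genes, up to 4 tested genes of each context list with the widest difference, up to 3 of the brightest genes of each marker list and the most alike genes. The text names marker genes only of the hepatic, yolk sac, cardiac, epithelial and notochord lists, and not every context gene the rule took. Shh, Apoa1, Apoa4, Alb, Apoc3, Tat and Pck1 were named after their values were seen. Alternatives covered normalization, pseudocount, filter, variance model, array weights, replicate block, the choice of probe sets and arrays left out. Values of the context lists without the arrays that stand apart were added after seeing the data.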

Additional observations from a re-analysis of the deposited data

How the results depend on the processing

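None of the 8 tested genes had an adjusted p under 0.05 in limma in any comparison under any alternative tried, and the smallest was 0.066, for Hhex at 26-30 against 16-20 somites with array weights. Of 525 values of these genes under alternatives 498 kept their sign and 27 did not. The counts over all genes, 0 in each comparison, moved with array weights to 731 for 26-30 against 16-20 somites, 29 for 26-30 against 21-25 somites and 339 for any stage, to 4 with only the 6 arrays of 26-30 and 16-20 somites, and to 1 for 21-25 against 16-20 somites without the 3 narrow-range arrays. Without single arrays they ranged from 0 to 1 for 26-30 against 16-20 somites, from 0 to 3 for 21-25 against 16-20 somites and from 0 to 2 for any stage.

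For 26-30 against 16-20 somites the sign turned without single arrays for Foxa2 (lowest -0.02, highest 0.27), Foxa3 (-0.61 to 0.06) and Gata5 (-0.11 to 0.11), and for Gata5 with the mean of all probe sets (0.11). For 21-25 against 16-20 somites it turned without single arrays for Foxa1 (-0.10 to 0.48), Foxa3 (-0.37 to 0.29), Gata4 (-0.04 to 0.31), Gata5 (-0.20 to 0.18), Gata6 (-0.01 to 0.23), Hnf4a (-0.36 to 0.56) and Hhex (-0.57 to 0.17). With array weights that step had 0.12 for Foxa3 and -0.10 for Gata4. Without the narrow-range arrays it had -0.07 for Foxa1, -0.01 for Gata6 and -0.11 for Hnf4a. For 26-30 against 21-25 somites it turned without single arrays for Gata4 (-0.10 to 0.17) and Gata5 (-0.20 to 0.19), and for Gata5 without the narrow-range arrays (-0.11). The cause of these turns was not tested. Foxa3 has no value with the 50th percentile filter, and Prox1 has one only without a filter.

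Same-numbered arrays did not deviate together throughout: their deviations correlated from -0.28 to 0.26, and those of differently numbered arrays from -0.52 to 0.43. Such values cannot tell whether same-numbered arrays shared a batch, which the sample titles do not give. The highest value was between 21-25 somites replicate 1 and 26-30 somites replicate 2, both narrow-range arrays. With the replicate block 0 of 8 genes passed in any comparison, as without it.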
